A study of Mus musculus with 9 samples.

Results

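Fam167b, Tmem252, Scgb3a1, Rgcc, Srgn and 1500011B03Rik are 6 of the 24321 genes listed in an RNA-seq table of mouse meningeal lymphatic endothelial cells (MLECs), the cells that line the lymphatic vessels of the brain's covering membranes. They were selected on the table itself, because their values are at or near 0 in most control libraries and high in the libraries from mice with intracranial tumors. The tumor-to-control contrast of these genes is therefore a description of how they were selected, and no test of it is given. All 6 genes are also on the study's own list of upregulated genes, which was drawn from the same libraries.

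Each of the 3 groups had 3 libraries, and every library was made from 10 cells sorted from the dorsal meninges of 6 pooled male mice. Per the labels the mice were 10 weeks old and had received 5 µL of PBS alone (control), 100000 GL261 glioma cells or 100000 B16 melanoma cells. Tissue was taken about 3 weeks (GL261) or 2 weeks (B16) after injection, so that tumor type and time cannot be told apart. The labels place the injection in the cisterna magna, whereas the study's methods place it under the dura and give other cell numbers. No transgene or deletion is named for any group, and both tumors were grown from transplanted cell lines. Sorted cells were CD45-negative and CD31-positive, with LYVE-1 as the lymphatic marker per the labels and the methods. The study's results text names PDPN as that marker instead. Values are FPKM, fragments scaled to transcript length and to the total of the library, so that levels can be set side by side between genes. They are relative to the other genes of the same library.

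Lymphatic endothelial cells take up tissue fluid and immune cells and differ from blood endothelial cells in a set of genes controlled by the transcription factor Prox1. The 6 genes have different roles. Rgcc encodes a cell cycle regulator that binds the kinase CDK1 and was first described as a gene that responds to complement. Srgn encodes serglycin, the core protein of a proteoglycan kept in secretory granules of blood cells and also made by endothelial cells. Scgb3a1 encodes a small secreted protein of the secretoglobin family, best known from airway epithelium. Tmem252 encodes a transmembrane protein, Fam167b a small protein of a family with few known functions, and 1500011B03Rik is listed by RefSeq as a long noncoding RNA.

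A value of 0 in the table is a listing and not proof of absence. The control libraries listed 7303, 8688 and 8152 genes above 0 and the tumor-associated libraries 8736 to 10852, and the study's sequencing summary gives every control library fewer aligned reads than every tumor-associated library. Of the 2658 genes at 10 FPKM or more in all 6 tumor-associated libraries, 7.30%, 2.97% and 5.23% were listed at 0 in control replicates 1, 2 and 3. Of the 2686 genes at 10 FPKM or more in all 3 control libraries, 0.707% to 3.24% were listed at 0 in single tumor-associated libraries. Of 10 genes that every cell uses, 3 were higher in tumor-associated MLECs (Actb, Gapdh and Tbp), and Tbp, which encodes a general transcription factor, was listed at 0 in 2 control libraries. Of these 3 calls, none was made with the log2 number of genes listed above 0 as a covariate and 1, Tbp, without a trend in the fit. Summed over all genes, the control libraries held 652636 to 693117 FPKM and the tumor-associated libraries 701951 to 888312 FPKM. The deposited values hold no read counts per gene, so that the reads behind a single value are unknown and no counting interval can be attached. In material of this kind fewer cells of a type and less RNA per cell cannot be told apart.

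Together the 6 genes made up 0.00147% to 0.0196% of the summed FPKM of control libraries, compared with 0.182% to 0.475% of that of tumor-associated libraries. Control replicates 1 and 3 listed 4 of the 6 genes at 0 and control replicate 2 listed 2, whereas none of the 6 tumor-associated libraries listed any of them at 0. B16 replicate 1 listed 8736 genes above 0, close to the 8688 of control replicate 2. Its 6 genes summed to 2274 FPKM, compared with 83.9 FPKM in that control library. Most of the 2274 FPKM came from Scgb3a1 (1001 FPKM) and Srgn (759 FPKM). Fam167b (20.1 FPKM) and Rgcc (74.0 FPKM) had their lowest tumor-associated values there. The genes were selected on these values, and the part of detection in the difference was not tested.

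**Figure D1:**
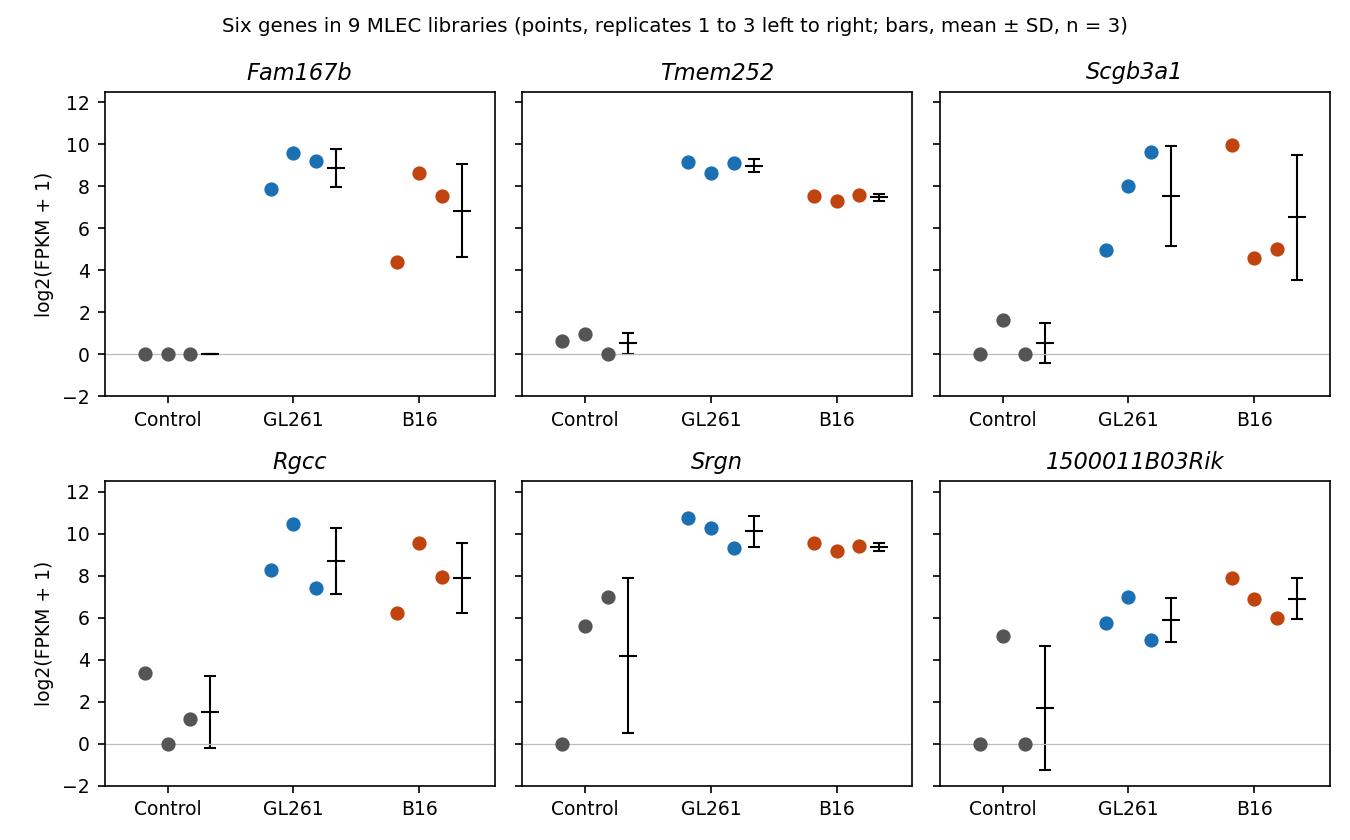
Each panel plots 1 gene, with log2(FPKM + 1) on the vertical axis and the groups on the horizontal axis. Points are libraries, replicates 1 to 3 from left to right, and the black bars are the mean ± SD of 3 libraries. Fam167b lies at 0 in all 3 control libraries, and the Srgn and 1500011B03Rik panels show the highest control values (127 and 33.9 FPKM).

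Fam167b was listed at 0 in all 3 control libraries. In GL261 MLECs it had 231, 775 and 588 FPKM, and in B16 MLECs 20.1, 396 and 183 FPKM. The groups of tumor-associated and control libraries did not overlap, and B16 replicate 1 was the lowest of the tumor-associated libraries by a wide margin. The mean was 531 ± 277 (SD, n = 3) FPKM in GL261 and 199.7 ± 188 (SD, n = 3) in B16 MLECs. No fold over the controls is given, because all control values are 0. Fam167b is a short gene with 2 exons, on the minus strand of chr4:129254059-129255793 of mm9, the build of the study.

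Tmem252 was the most even of the 6 genes within each tumor. Control libraries had 0.546, 0.938 and 0 FPKM, GL261 libraries 583, 404 and 561 FPKM, and B16 libraries 184, 158 and 195 FPKM. All GL261 libraries lay above all B16 libraries, and all of these far above the controls. The mean was 516 ± 97.7 FPKM in GL261 and 179 ± 18.9 FPKM in B16 MLECs (SD, n = 3 each). Tmem252 lies on the plus strand of chr19:24748498-24754151 of mm9, where the GENCODE M1 annotation lists it under its earlier symbol E030010A14Rik.

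Scgb3a1 had 0, 2.15 and 0 FPKM in control libraries. Its tumor-associated values were spread widely within both tumors. GL261 libraries had 30.3, 256 and 805 FPKM, and B16 libraries had 1001, 23.3 and 31.7 FPKM. B16 replicate 1, the lowest tumor-associated library for Fam167b and Rgcc, was the highest for Scgb3a1. The SD exceeded the mean in both tumors, at 364 ± 398 FPKM in GL261 and 352 ± 562 FPKM in B16 MLECs (n = 3 each). The gene lies on the plus strand of chr11:49477112-49478620 of mm9 and its longest transcript has 4 exons.

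Rgcc had 9.26, 0 and 1.22 FPKM in control libraries. The GL261 values were 311, 1411 and 168 FPKM and the B16 values 74.0, 747 and 244 FPKM. Replicate 2 of each tumor held its highest value, and the lowest tumor-associated value was 7.99 times the highest control value. The mean was 630 ± 680 FPKM in GL261 and 355 ± 350 FPKM in B16 MLECs (SD, n = 3 each), so that the spread within a tumor was as large as the mean. Rgcc lies on the minus strand of chr14:79688558-79701442 of mm9, under the earlier symbol 1190002H23Rik.

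Srgn did not meet the rule by which it was selected in 2 of 3 control libraries. Those libraries had 0, 46.9 and 127 FPKM, so that only control replicate 1 was near 0. The gene had the highest mean of the 6 in each tumor, although Rgcc or Scgb3a1 was higher in 4 of the 6 single libraries. Its values were 1709, 1249.8 and 637 FPKM in GL261 and 759, 579 and 676 FPKM in B16 MLECs. Its lowest tumor-associated value was 4.57 times the highest control value. The B16 libraries were close together, at 671 ± 90.01 (SD, n = 3) FPKM, and the GL261 libraries were at 1199 ± 538 (SD, n = 3) FPKM. Srgn lies on the minus strand of chr10:61956581-61990199 of mm9 with 6 annotated transcripts.

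1500011B03Rik was the only one of the 6 whose groups overlapped. Control libraries had 0, 33.9 and 0 FPKM, GL261 libraries 52.1, 126 and 29.7 FPKM, and B16 libraries 236, 117 and 61.6 FPKM. GL261 replicate 3 was below control replicate 2. It was also the only one whose mean was higher in B16 (138 ± 88.9 FPKM) than in GL261 MLECs (69.4 ± 50.6 FPKM; SD, n = 3 each). No position in mm9 is given for it, because the annotation used here has no entry under its symbol.

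Values of the other 5 genes could in principle share reads with similar or overlapping genes. No other annotated gene overlapped any of these 5 loci. No stretch of the coding transcripts of Fam167b, Scgb3a1 or Rgcc matched another gene's coding transcript at 90% identity or more. The longest such match was 82 bases for Tmem252, with Pacs2, and 94 bases for Srgn, with Mre11a, both shorter than the reads of 150 bases. Noncoding transcripts, pseudogenes and the rest of the genome were not searched, so that reads shared with them were not examined.

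Across all 9955 genes tested (those that reached 1 FPKM in 3 or more libraries), 2.9% were higher and 1.02% lower in the 6 tumor-associated libraries than in the 3 controls at an adjusted p under 0.05 (limma on log2(FPKM + 1), Benjamini-Hochberg adjustment). The 6 genes were selected on this contrast, so that their differences below are a description and no test of them is given. With the log2 number of genes listed above 0 as a covariate, the calls dropped from 289 higher and 102 lower to 10 higher and 1 lower. The tumor-associated minus control difference on this log2 scale was 7.87 for Fam167b, which is the tumor-associated mean itself, and 7.71 for Tmem252. It was 6.81 for Rgcc, 6.49 for Scgb3a1, 5.56 for Srgn and 4.69 for 1500011B03Rik, with standard errors between 0.52 and 1.19. The median of all genes tested was 0.20. By this difference Fam167b ranked 4 and Tmem252 ranked 5 among the genes tested, and 1500011B03Rik, the lowest of the 6, ranked 66. Every tumor-associated library was above every control library for 5 of the 6 genes and for 6.08% of all genes tested. These ranks and this count follow from the selection and are no test of the 6 genes.

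**Figure D2:**
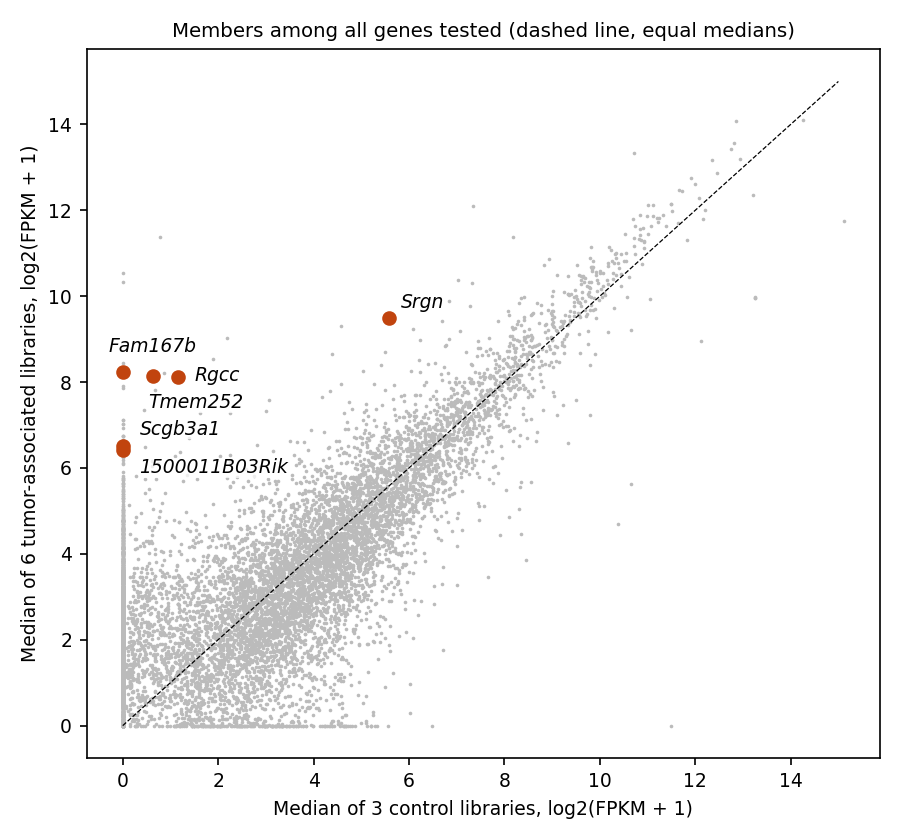
Each gray point is 1 of the 9955 genes tested, with the median of the 3 control libraries on the horizontal axis and that of the 6 tumor-associated libraries on the vertical axis, both as log2(FPKM + 1). The 6 selected genes are marked in red. Fam167b, Scgb3a1 and 1500011B03Rik lie at a control median of 0, and Srgn lies above the dashed line of equal medians at a control median of 46.9 FPKM.

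The shape of these profiles was not restricted to the 6 genes. A gene was counted as having it when at least 2 control libraries were under 2 FPKM and all 6 tumor-associated libraries were at 10 FPKM or more. Of the 24321 listed genes 106 had it, including 5 of the 6, all but Srgn. The opposite profile, at 10 FPKM or more in all control libraries and under 2 in at least 4 tumor-associated libraries, was found in 33 genes. When 50 FPKM was required instead of 10, 13 genes remained, with Tmem252 and Rgcc among them. Fam167b was left out by its 20.1 FPKM in B16 replicate 1, just as 1500011B03Rik was by its 29.7 FPKM in GL261 replicate 3 and Scgb3a1 by 3 of its libraries.

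Among the 106 genes, ordered by the median of the tumor-associated libraries, Fam167b (313 FPKM) ranked 4, Tmem252 (299 FPKM) ranked 5 and Rgcc (277 FPKM) ranked 7. Scgb3a1 (144 FPKM) ranked 14 and 1500011B03Rik (89.1 FPKM) ranked 28. The first 3 places were held by Igfbp3, an insulin-like growth factor binding protein, and by Ly6a and Ly6c1, surface proteins of the Ly6 family. Fam167b was 1 of 22 genes listed at 0 in all 3 control libraries and at 10 FPKM or more in each tumor-associated library.

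The comparison of GL261 with B16 MLECs was not used to select the genes and was tested. None of the 6 genes passed (0 of 6), compared with 0.01% of all genes tested, which was 1 gene. That gene was B2m, the light chain of MHC class I, with 15798 to 18703 FPKM in GL261 and 3114 to 3525 FPKM in B16 MLECs (log2 difference 2.37, adjusted p = 0.0002 from limma). At an unadjusted p under 0.05 there were 548 genes. For 5 of the 6 genes GL261 MLECs had the higher mean log2 value, and the median difference of all genes tested was 0.0096. The share of all genes with that direction was not counted. The signs of Scgb3a1, Rgcc and Srgn changed in some of the alternatives in the closing section, so that no shared direction is read from this count.

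The smallest uncertainty among the 6 was that of Tmem252. Its GL261 minus B16 difference was 1.51 on the log2(FPKM + 1) scale (standard error 0.45, 95% interval 0.53 to 2.49), with an unadjusted p of 0.0057 and an adjusted p of 0.465 from limma. It was the 1 gene of the 6 whose GL261 and B16 libraries did not overlap, as was the case for 13.8% of all genes tested. The exact permutation test of 3 libraries against 3 gave p = 0.1, the smallest value that it can give (two-sided).

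Fam167b differed by 2.03 (95% interval 0.02 to 4.04, unadjusted p = 0.0478, adjusted p = 0.897 from limma), with overlapping libraries. Without B16 replicate 1, its lowest library, the difference was 0.81. The intervals of the other 4 genes included 0. They reached from -2.10 to 4.11 for Scgb3a1, from -1.47 to 3.09 for Rgcc, from -2.14 to 3.60 for Srgn and from -3.68 to 1.63 for 1500011B03Rik, each with an adjusted p of 1 from limma. Differences of several fold in either direction were therefore not resolved with 3 libraries per tumor.

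**Figure D3:**
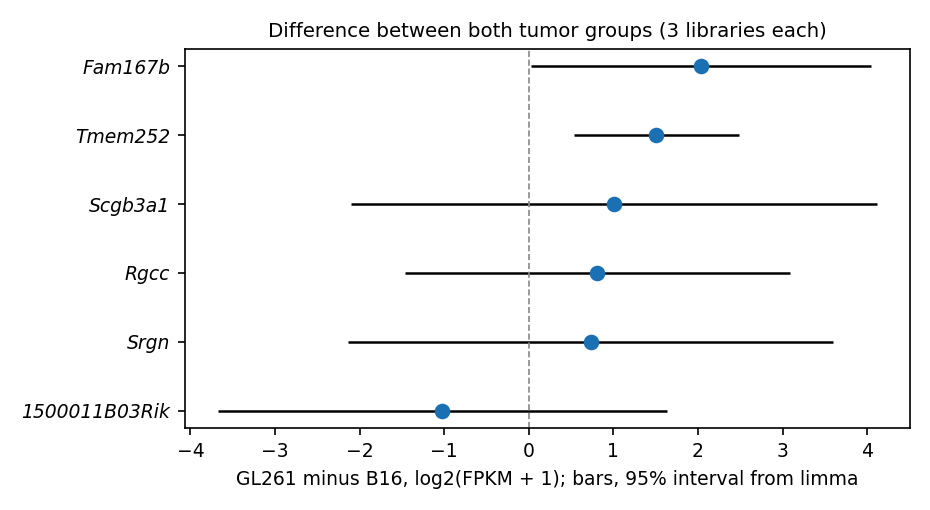
Points are the GL261 minus B16 differences in mean log2(FPKM + 1) (horizontal axis) of the 6 genes (vertical axis), and the bars are 95% intervals from limma with 3 libraries per tumor. The intervals of Fam167b and Tmem252 lie above 0 before adjustment for the number of genes tested, and those of the other 4 cross 0.

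The 6 genes also differed in how much they varied among the tumor-associated libraries. The highest of the 6 libraries exceeded the lowest by a factor of 43.0 for Scgb3a1, 38.5 for Fam167b, 19.1 for Rgcc and 7.93 for 1500011B03Rik. For Tmem252 and Srgn the factors were 3.69 and 2.95. Fam167b and Rgcc both had their highest value in GL261 replicate 2 and their lowest in B16 replicate 1. Scgb3a1 and 1500011B03Rik both had their highest value in B16 replicate 1. Over all 9 libraries Pearson's r of log2(FPKM + 1) between any pair of the 6 genes lay between 0.66 (Rgcc and 1500011B03Rik) and 0.95 (Fam167b and Tmem252), which reflects the shared split between control and tumor-associated libraries.

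The genes with the most similar profile over the 9 libraries were found by the same correlation, given here as a description. The points share the libraries, their depth and the tumor-control split. For Fam167b they were Nostrin (r = 0.99), an adaptor of endothelial nitric oxide synthase, Il3ra (0.99), a cytokine receptor chain, and Tgfbi (0.99), a matrix protein. Each of these was listed at 0 in all 3 control libraries. For Tmem252 they were Ly6c1, Ms4a6d and Lcp1 (0.99 each), also at 0 in all controls. Ms4a6d and Lcp1 are known from leukocytes, and Lcp1 reached 19.5 to 40.2 FPKM where a tumor was present.

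For Scgb3a1 the most similar genes were Pi4k2b (0.99), a lipid kinase, Pmf1 (0.98), a kinetochore protein, and Rusc2 (0.97). Their highest values were 8.65 FPKM for Pi4k2b, 90.2 FPKM for Pmf1 and 9.61 FPKM for Rusc2, compared with 1001 FPKM for Scgb3a1. For Rgcc they were Krtcap2, Cd200 and Snrpg (0.95 to 0.97), and for Srgn they were Endod1, Tubb6 and Rai14 (0.97 to 0.98). The genes most similar to 1500011B03Rik were Plrg1, Fmnl3 and Zfr (0.99 each). Those of Rgcc, Srgn and 1500011B03Rik were clearly expressed in at least 1 control library, with Krtcap2 at up to 386 FPKM there.

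Markers of the sorted cell type and of other cell types moved with the same contrast. Lymphatic markers were present in every library. Lyve1, the sort marker per the labels and the methods, did not pass the test (974 to 1705 FPKM without and 628 to 1895 FPKM with a tumor, difference -0.36, adjusted p = 0.629 from limma). Pdpn, the marker named in the study's results, ranged from 147 to 372 FPKM without and from 32.0 to 247 FPKM with a tumor. It did not pass either (difference -1.48, adjusted p = 0.235 from limma). Of 9 lymphatic markers tested, 4 were lower in tumor-associated MLECs (Ccl21c, Mmrn1, Reln and Flt4) and none was higher. The count was 1 without control replicate 3 and 2 without control replicate 1, control replicate 2 or GL261 replicate 1, and Mmrn1 passed each time. The summed FPKM of the list ranged from 10552 to 17123 over the control, from 1428 to 3520 over the GL261 and from 2679 to 6916 over the B16 libraries. Ccl21c alone made up most of each control sum, so that the sums do not stand for the list as a set. It ranged from 7384 to 13803 FPKM over the control, from 142 to 810 FPKM over the GL261 and from 1204 to 4187 FPKM over the B16 libraries. Prox1, the defining transcription factor, ranged from 20.9 to 42.2 FPKM without and from 1.87 to 16.5 FPKM with a tumor (difference -2.79, adjusted p = 0.0509 from limma).

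Of 12 markers of blood endothelium, 9 were higher in tumor-associated MLECs, compared with 2.9% of all genes tested. These were Ly6c1, Cd34, Flt1, Esam, Slc2a1, Aplnr, Vwf, Emcn and Plvap. The others did not pass, with differences of 1.47 for Tek, -0.34 for Kdr and -0.63 for Cldn5. Of the 12, 4 are on the study's own upregulated list and are not independent of it. The summed FPKM of the 12 ranged from 2385 to 3202 over the control, from 7113 to 10027 over the GL261 and from 6247 to 8724 over the B16 libraries. Every control value of Ly6c1 was 0 and its tumor-associated values ran from 393 to 4375 FPKM, while Cd34 ran from 0.370 to 14.3 without and from 153 to 592 FPKM with a tumor. With the number of genes listed above 0 as a covariate, 2 of the 9 calls remained, Flt1 and Ly6c1, and none of the 4 lymphatic ones. The part of these markers in the values of Fam167b, Tmem252, Scgb3a1, Rgcc, Srgn and 1500011B03Rik was not tested.

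**Figure D4:**
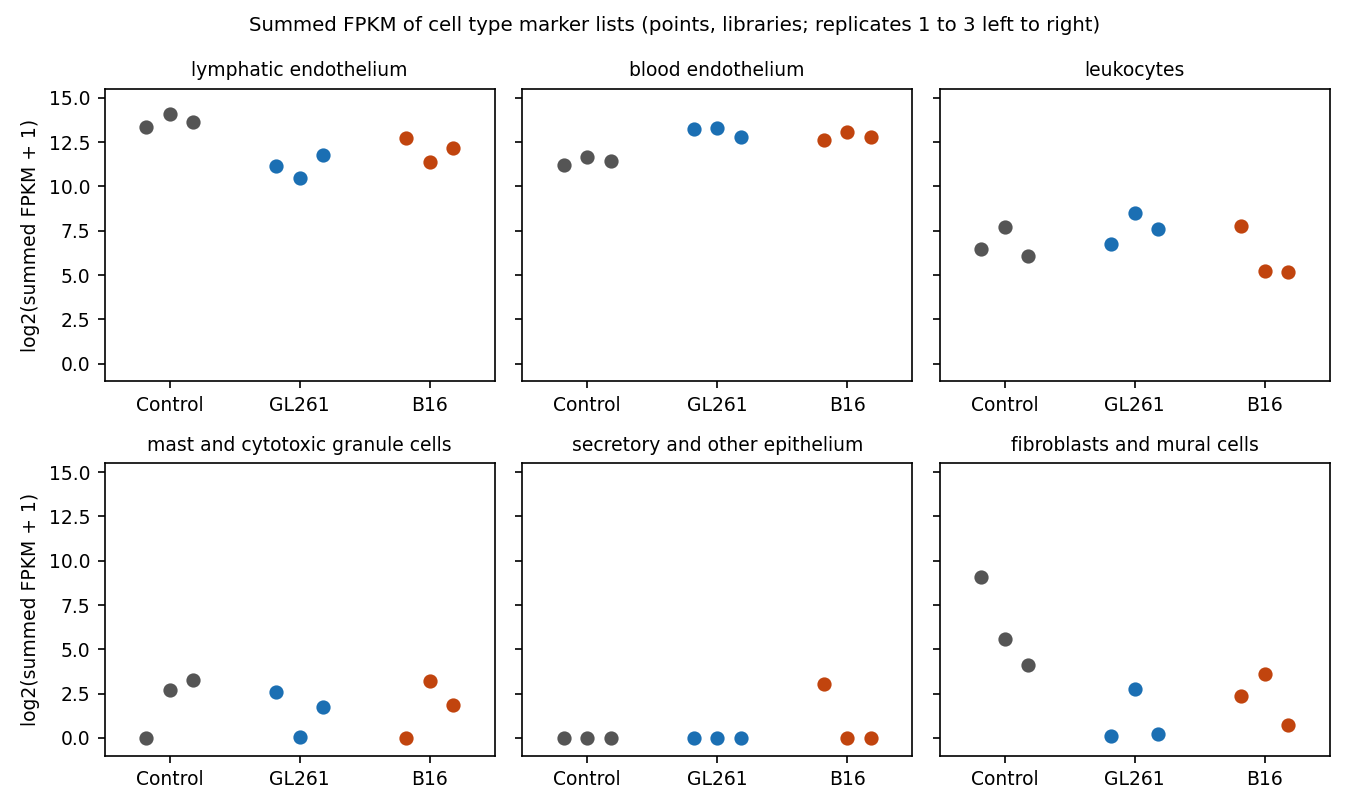
Each panel gives the summed FPKM of 1 marker list as log2(sum + 1) on the vertical axis for the groups on the horizontal axis, with 1 point per library. Lymphatic marker sums are lower and blood endothelial marker sums higher in all 6 tumor-associated libraries than in all 3 controls, and the epithelial list is at 0 in 8 of 9 libraries. Ccl21c makes up most of the lymphatic sum of each control library.

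Most markers of mast cells, cytotoxic lymphocytes and epithelium, where Srgn or Scgb3a1 are best known, were at 0. Myeloid markers such as Lyz2 and Cd14 were not, as given below. Ptprc, which encodes the leukocyte surface protein CD45 that was used to gate such cells out, and Cd3e were listed at 0 in all 9 libraries. Of 8 genes of mast cells and cytotoxic lymphocytes, the classical sources of serglycin, 6 were at 0 in all 9 libraries and the sum of the list was at most 8.62 FPKM, compared with 579 FPKM or more for Srgn in tumor-associated libraries. Srgn was highest in GL261 replicate 1, where that sum was 5.04 FPKM. The part of mast cell, cytotoxic or other leukocyte RNA in the Srgn values was not tested.

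Myeloid genes were more variable. None of the 3 leukocyte markers tested passed, and the summed FPKM of the whole leukocyte list of 8 genes ranged from 65.2 to 211 over the control, from 108 to 368 over the GL261 and from 35.1 to 220 over the B16 libraries. GL261 replicate 2, the highest library for Fam167b and Rgcc, also had the highest values of Lyz2 (324 FPKM), C1qa (186 FPKM) and Cd74 (961 FPKM). It was the only library with Csf1r above 0. The myeloid genes Cd14 and Cd68 went the other way, with 18.6 and 20.9 FPKM there and 46.0 and 43.2 FPKM in control replicate 1. C1qa and Cd74 are not on the leukocyte list. In GL261 replicate 1, the highest for Srgn and Tmem252, Lyz2 had 2.33 FPKM, C1qa 0.323 FPKM, Cd14 95.3 FPKM and Cd74 159 FPKM. The part of myeloid RNA in the values of Fam167b, Rgcc, Srgn and Tmem252 was not tested.

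All 9 of the other secretoglobin genes examined were at 0 in all 9 libraries, Scgb1a1 and Scgb3a2 of airway epithelium included. Of 8 epithelial markers, 7 were at 0 in every library, and the keratin gene Krt18 had 7.15 FPKM in B16 replicate 1 and 0 elsewhere. That library also had the highest Scgb3a1 value, and GL261 replicate 3, with 805 FPKM of Scgb3a1, had none of the 8. The part of epithelial RNA in the Scgb3a1 values was not tested. Of the tumor cells' own markers, Mlana, Tyr, Tyrp1 and Mitf of melanoma and Gfap and Sox2 of glia were at 0 in all 9 libraries. S100b, counted here on the glial list only, had 37.0, 36.5 and 25.3 FPKM in B16 MLECs and at most 3.00 FPKM elsewhere. Neither of the 2 genes of that list tested passed between tumor-associated and control MLECs. The 7 genes of the melanocyte list, which does not hold S100b, summed to at most 4.07 FPKM in any library. The part of tumor cell RNA in these values was not tested. Of 8 fibroblast and mural cell genes 1 could be tested, Dcn, which was lower in tumor-associated MLECs (difference -4.60) and dropped under the filter on low values without any 1 of the control libraries, and the list summed to 16.03 to 531 FPKM in control libraries and to at most 11.4 FPKM in the others.

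Genes that act with the 6, or belong to their families, were examined as lists. Fam167a, the paralog of Fam167b, had at most 2.603 FPKM in any library. Of 5 SRC family kinase genes and regulators tested (Fyn, Yes1, Lyn, Lck and Csk), none passed between tumor-associated and control MLECs. Of 9 cell cycle genes and Rgcc partners tested none passed, and 1 of the list is on the study's own list. Cdk1, the kinase bound by the Rgcc product, was at 0, 0.397 and 0 FPKM without and at 0 to 58.3 FPKM with a tumor (difference 2.98, adjusted p = 0.140 from limma). Cdkn1a, a CDK inhibitor, had 0.729 to 133 and 150 to 510 FPKM and also did not pass (adjusted p = 0.0584 from limma). Cdkn1a passed without control replicate 2 and Cdk1 without B16 replicate 2.

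Of 10 complement genes tested, 1 was higher, the membrane regulator Cd59a. Its 3 control values were 0 and its tumor-associated values 7.85 to 58.4 FPKM (difference 4.75). This call and that of Dcn were lost with the number of genes listed above 0 as a covariate. Of 13 proteoglycan core protein genes tested beside Srgn, none was higher and 1 was lower, again Dcn. Sdc4 passed as higher without B16 replicate 1, without a trend or with a pseudocount of 0.1, and Thbd without control replicate 2. Apart from Cd74, the highest value of these genes in a tumor-associated library was 133 FPKM (Esm1), and that of Srgn was never under 579 FPKM. The basement membrane proteoglycan gene Hspg2, for example, had 6.44 to 8.30 FPKM there. None of 19 genes for the synthesis of glycosaminoglycan chains passed, with a median difference of 0.61, although Ndst1 did without a trend. The median differences of the SRC family, cell cycle, complement and core protein lists were -0.01, 1.42, 0.18 and 0.18, compared with 0.20 for all genes tested.

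Genes of the hypoxia response were included because Rgcc is known as one in endothelium. Of 16 tested, 6 were higher in tumor-associated MLECs (Stc1, Slc2a1, Hilpda, Bnip3, Hif1a and Ldha), compared with 2.9% of all genes tested. Their differences lay between 2.33 and 5.24, and the median of the list was 1.29. Ndrg1 and Adm went the other way, at -1.09 and -0.92, and did not pass. Slc2a1 is also among the blood endothelial calls above. Of this list 4 genes are on the study's own upregulated list, so that the count is not independent of it, and with the number of genes listed above 0 as a covariate none passed. Without GL261 replicate 1 or B16 replicate 2 the count was 3 (Ldha, Slc2a1 and Stc1). Stc1, a secreted glycoprotein, ranged from 0 to 1.64 FPKM without and from 18.4 to 262 FPKM with a tumor and was among the 106 genes counted above. Ldha, lactate dehydrogenase A, ranged from 44.1 to 111 FPKM and from 217 to 559.9 FPKM.

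The genes beside 5 of the 6 genes on the chromosome were examined as well. Within 50000 bases of the 5 positioned genes, a window set after the values had been seen, 13 other genes were tested, with a median difference of -0.08. None was higher in tumor-associated MLECs, which with 13 genes cannot be told apart from the 2.9% of all genes tested. Compared with 1.02% of all genes tested, 1 of the 13 was lower. That gene was Flt4, which encodes the lymphatic growth factor receptor VEGFR3 and lies 10871 bases from Scgb3a1 on the same strand. It ranged from 174 to 220 FPKM without and from 40.1 to 106 FPKM with a tumor (difference -1.80, adjusted p = 0.0160 from limma, lost with the covariate, without a trend and without control replicate 3), while Scgb3a1 ranged from 0 to 2.15 and from 23.3 to 1001 FPKM. The closest neighbor of all was Lck, 3174 bases from Fam167b, which ranged from 0 to 20.5 FPKM without and from 0 to 18.9 FPKM with a tumor.

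**Figure D5:**
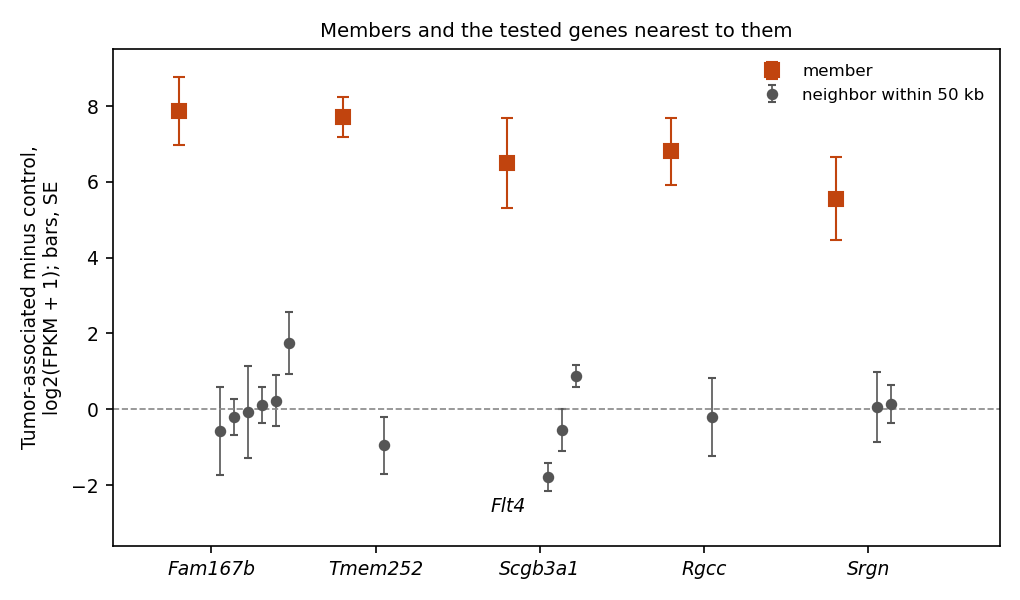
The vertical axis gives the tumor-associated minus control difference in mean log2(FPKM + 1) with its standard error, for 5 of the 6 genes (red squares, selected on this contrast) and for the 13 tested genes within 50000 bases of them (gray points), grouped by gene on the horizontal axis. The neighbors scatter around 0, and Flt4 beside Scgb3a1 lies lowest at -1.80.

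Promoter sequences were compared because the 6 genes shared a profile. RefSeq (GRCm38.p6) gave 7 start sites, with 1 per gene and 2 for Srgn, and the 250 bases before each were searched on both strands for 9 short motifs. In the sequences that follow, read 5′ to 3′ on the gene's strand up to the base before the start, capitals mark any of these motifs. Fam167b, Tmem252 and the upstream one of the Srgn starts are shown because they alone held the Krüppel, SOX and E-box motifs together. Rgcc and Scgb3a1 are shown as examples of the 3 genes that held none of the 9 but the Krüppel motif, the other being 1500011B03Rik.
Fam167b: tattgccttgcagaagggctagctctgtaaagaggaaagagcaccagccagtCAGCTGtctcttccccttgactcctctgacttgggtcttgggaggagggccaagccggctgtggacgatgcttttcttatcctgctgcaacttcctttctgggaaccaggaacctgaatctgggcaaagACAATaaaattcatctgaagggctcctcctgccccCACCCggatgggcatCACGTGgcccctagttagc
Tmem252: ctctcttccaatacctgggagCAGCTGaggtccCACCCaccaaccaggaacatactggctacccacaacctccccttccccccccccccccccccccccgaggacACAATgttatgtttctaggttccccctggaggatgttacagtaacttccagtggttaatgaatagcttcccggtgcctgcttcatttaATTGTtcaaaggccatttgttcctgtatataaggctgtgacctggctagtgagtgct
Srgn: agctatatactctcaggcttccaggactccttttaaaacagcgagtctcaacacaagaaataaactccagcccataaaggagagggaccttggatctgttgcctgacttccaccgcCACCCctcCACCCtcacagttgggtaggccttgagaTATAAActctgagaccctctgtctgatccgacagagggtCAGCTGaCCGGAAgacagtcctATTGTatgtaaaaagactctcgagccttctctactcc
Rgcc: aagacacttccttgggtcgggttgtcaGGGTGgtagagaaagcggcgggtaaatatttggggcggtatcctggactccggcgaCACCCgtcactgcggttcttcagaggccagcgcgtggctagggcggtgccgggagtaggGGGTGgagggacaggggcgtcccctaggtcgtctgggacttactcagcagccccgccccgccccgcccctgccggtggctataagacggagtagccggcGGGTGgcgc
Scgb3a1: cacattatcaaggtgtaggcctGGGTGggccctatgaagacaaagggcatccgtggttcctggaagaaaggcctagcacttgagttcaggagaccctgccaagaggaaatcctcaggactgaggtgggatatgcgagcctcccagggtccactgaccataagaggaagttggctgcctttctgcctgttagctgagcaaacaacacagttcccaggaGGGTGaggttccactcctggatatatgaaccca

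These windows are chr4:129578581-129578830, chr19:24673758-24674007, chr10:62527446-62527695, chr14:79301636-79301885 and chr11:49663345-49663594 of GRCm38.p6, with Tmem252 and Scgb3a1 on the plus strand and the others on the minus strand. CACCC, the core of sites for Krüppel-like factors, was found before all 7 starts and in 52.0% of all promoters of this length. CAGCTG, an E-box, was found in 3 of the 6 genes and in 13.0% of all promoters. ACAAT, the core bound by SOX factors, was found in 3 and in 27.7%. ACGTG, the core of hypoxia response elements, was found in 2, Fam167b and the other Srgn start, and in 16.6% of all promoters. In Fam167b it overlaps itself on both strands as CACGTG.

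The letters TATAAA of a TATA box (12.4% of all promoters) and CCGGAA, an ETS core (12.03%), were each found in 1 gene, before the Srgn start shown. There TATAAA began 98 bases before the start. Only these exact letters were searched, so that variants such as the tatataa of the Tmem252 sequence were not counted. TTTCNNTTT (9.37%), an interferon response core, was found before the other Srgn start. TGACTCA (4.46%), an AP-1 site, and GGGNNTTCC (4.98%), an NF-kB core, were found in none of the 6, which says only that these letters do not occur in these windows. The promoters also differed in CpG content. Rgcc had 22 CpG dinucleotides in 250 bases and 1500011B03Rik had 19, while the other 5 windows had 2 to 5, compared with a median of 6 over all promoters.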

How the data were processed

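The 9 libraries (3 each of control, GL261 and B16 MLECs) came from poly(A)-primed Smart-seq2 with 18 cycles of amplification. The authors trimmed and filtered the reads, aligned them to mm9 with TopHat2 2.0.12 and deposited FPKM from Cufflinks 2.2.1; the annotation given to Cufflinks is not given in the sources used here. FPKM are relative within a library, so that a large change in a few genes shifts the others, and read depth is unknown from them. Groups were taken from the sample labels, and the replicates are pools of different mice.

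Values were analysed as log2(FPKM + 1), which understates changes of low genes. Differences were fitted with limma 3.58.1 in R 4.3.3 (eBayes with a trend) on 9955 genes with 1 FPKM or more in 3 or more libraries, with Benjamini-Hochberg adjustment over all of them and a threshold of 0.05. GL261 minus B16 came from a model of all 9 libraries in 3 groups, and tumor-associated minus control from a model of 6 against 3. The 6 genes and the gene lists were chosen with earlier results of these data known. Other genes were named by rule: for each of the 6, the 3 most correlated genes, and from each list up to 4 genes, those past the threshold with the largest differences first and then those with the highest mean FPKM; further genes of the lists were named after their values had been seen, to complete a count or to give a defining marker. Positions came from GENCODE M1 (mm9), promoters from RefSeq (GRCm38.p6) and similarity between coding transcripts from blastn 2.17.0. The fits were tested on simulated data. Replicate numbers did not pair the libraries: Pearson's r between the deviations of same-numbered libraries of different groups lay between -0.03 and 0.04. Alternatives are given in the closing section.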

Additional observations from a re-analysis of the deposited data

How the results depend on the processing

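The 17 alternatives per result were a pseudocount of 0.1, sums of 1000000 per library, quantile normalization, filters of any FPKM above 0 or a mean of 10, eBayes without a trend, the replicate block, the log2 number of genes listed above 0 as a covariate, and each library left out. The tumor-associated minus control difference of the 6 genes kept its sign in all of them. Among fits with all libraries it was lowest for Srgn, at 2.67 with the covariate. Without control replicate 1, the only control listed at 0 for it, Srgn was at 3.46. Sums of 1000000 moved the median of all genes from 0.20 to 0.05, quantile normalization to 0.03 and the pseudocount of 0.1 to 0.40.

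The GL261 minus B16 differences of Fam167b, Tmem252 and 1500011B03Rik kept their sign in all 17, and none of the 6 genes passed in any, with adjusted p from 0.273 to 1 (limma). With a library left out, that of Scgb3a1 ranged from -0.046 (without GL261 replicate 3) to 2.73 and that of Rgcc from -0.062 (without GL261 replicate 2, and -0.026 without B16 replicate 1) to 1.63. That of Srgn was -1.17 with the covariate. The cause was not tested. The number of genes past the threshold between GL261 and B16 was 2 after quantile normalization, 6 without a trend and 1 to 4 with a library left out (4 without B16 replicate 3). B2m passed in 16 of the 17 and not without a trend.

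Between tumor-associated and control MLECs, 289 genes were higher and 102 lower. The covariate, which lies along the group difference, left 10 and 1. The filter of any FPKM above 0 left 185 higher and the pseudocount of 0.1 left 65 lower. With a library left out the counts were 182 (without B16 replicate 3) to 364 higher and 51 (without control replicate 1) to 111 lower. Of all calls 73.9% were higher, compared with 62.1% after quantile normalization. With the replicate block, whose numbers are only names here, 227 were higher and 76 lower, and 1 gene differed between the tumors. The switched-on profile was found in 139 genes after scaling to 1000000, in 94 under a limit of 1 FPKM and in 13 above 50 FPKM, and the opposite profile in 21 and 0 under the last 2 settings.

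Without counts per gene, no counting interval can be given for a 0 in a control library. With 3 libraries per tumor an exact permutation test cannot go below 0.1.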
